A study of Mus musculus with 12 samples.

Results

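The Hox genes were followed in single-cell RNA of mouse gonads taken around E12, the stage at which the supporting cells of the gonad begin to become Sertoli cells in XY or pre-granulosa cells in XX embryos. The members are every gene whose symbol is Hox followed by a cluster letter (a, b, c or d) and a paralog number. That rule uses no measured value, but it was set with earlier results of these data known. This gave 39 genes of the 32285 features counted. Gonads of embryos with 23 ± 3 tail somites came from wild type (WT), from -KTS KO, which cannot make the WT1 variant lacking the amino acids KTS, and from +KTS KO, which cannot make the variant that holds them, in XX and XY, with 2 libraries for each of the 6 groups. Both mutants carry their Wt1 change in the germ line, so that every cell of the embryo has it, on a mixed B6CBAF1/JRj background. The -KTS KO embryos are homozygous. The study's text gives the +KTS KO as homozygous and its methods write it as heterozygous, and the sample labels give the name alone. Both XY -KTS KO libraries, and replicate 2 of XX -KTS KO, have more than 1 embryo in their labels and so average over embryos.

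Hox genes encode homeodomain transcription factors and lie in 4 clusters, HoxA to HoxD. Genes of the same number in different clusters descend from a common ancestor and are called paralogs. Along the trunk the low numbers are used furthest forward and the high numbers furthest back, in the order in which the genes lie on the chromosome. Cells therefore keep a record of the body level at which they arose. The gonad forms from the coelomic epithelium and the mesenchyme beneath it in the lower trunk, next to the mesonephros, and posterior members such as Hoxa10 and Hoxa11 are known for their part in the uterus and kidney.

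In the GENCODE annotation of GRCm38, the 11 HoxA genes span chr6:52155590-52260880 on the minus strand. The 10 HoxB genes span chr11:96194316-96368256, the 9 HoxC genes chr15:102921103-103036852 and the 9 HoxD genes chr2:74668310-74765142, all on the plus strand. Wt1 itself is on chromosome 2 as well, 30.36 Mb from HoxD. By paralog number, 8 members are called anterior here (1 to 3), 15 central (4 to 8) and 16 posterior (9 to 13). Exons of Hoxc5 overlap those of Hoxc10 on the same strand, and so do those of Hoxd3 and Hoxd4, so the split of UMIs within each of these pairs is uncertain.

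Hoxd8, Hoxd9 and Hoxd10 lie side by side in HoxD and were lower in progenitor cells of the -KTS KO, where Hoxb8 of HoxB was higher in XX. Hoxd10 was also called lower in progenitor cells of XX +KTS KO. The start regions of these 4 genes are shown for that reason. Each is the RefSeq window from 250 bases before to 50 bases after the start on GRCm38.p6, read 5′ to 3′ along the gene. Positions are chr2:74704365-74704664 for Hoxd8, chr2:74697513-74697812 for Hoxd9, chr2:74691641-74691940 for Hoxd10 and chr11:96281655-96281954 for Hoxb8, all on the plus strand. Capitals mark matches on either strand to AGGTCA, the half-site of retinoic acid and other nuclear receptors, to TGATNNAT, a site shared by Hox and Pbx proteins, or to GCGGGGGCG and GCGTGGGNG, which are bound by zinc fingers of the EGR and WT1 kind.
Hoxd8: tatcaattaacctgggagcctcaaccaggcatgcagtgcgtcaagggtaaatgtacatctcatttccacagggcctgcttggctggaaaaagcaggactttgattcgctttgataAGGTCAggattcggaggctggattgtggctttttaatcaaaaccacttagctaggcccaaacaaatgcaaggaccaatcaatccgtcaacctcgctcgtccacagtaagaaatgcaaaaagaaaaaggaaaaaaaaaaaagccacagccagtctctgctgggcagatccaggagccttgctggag
Hoxd9: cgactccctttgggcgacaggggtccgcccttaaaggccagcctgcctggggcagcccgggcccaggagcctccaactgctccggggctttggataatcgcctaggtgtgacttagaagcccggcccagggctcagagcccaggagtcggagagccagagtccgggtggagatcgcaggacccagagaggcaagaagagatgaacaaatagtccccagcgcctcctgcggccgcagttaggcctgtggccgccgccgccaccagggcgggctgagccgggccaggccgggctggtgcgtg
Hoxd10: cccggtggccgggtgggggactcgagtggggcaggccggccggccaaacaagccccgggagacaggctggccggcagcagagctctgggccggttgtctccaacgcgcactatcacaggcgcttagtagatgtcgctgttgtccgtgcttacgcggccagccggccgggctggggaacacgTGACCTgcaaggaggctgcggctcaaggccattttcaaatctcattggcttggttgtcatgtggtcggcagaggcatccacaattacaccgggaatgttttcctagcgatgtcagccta
Hoxb8: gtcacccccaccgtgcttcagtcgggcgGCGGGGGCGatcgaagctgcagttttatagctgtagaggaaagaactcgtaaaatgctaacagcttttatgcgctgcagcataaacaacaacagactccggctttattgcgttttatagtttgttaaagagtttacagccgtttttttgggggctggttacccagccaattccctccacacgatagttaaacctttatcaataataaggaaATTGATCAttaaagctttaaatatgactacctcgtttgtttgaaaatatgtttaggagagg
RefSeq windows were matched by symbol for 22 of the 39 genes, 24 windows in all. AGGTCA was in 7 of the 24 (Hoxa5, Hoxb4, Hoxc4, Hoxd3, Hoxd4, Hoxd8 and Hoxd10) and in 16.3% of 32851 windows of all genes. TGATNNAT was in 4 (Hoxa2, Hoxb1, Hoxb8 and Hoxd11) and in 8.85% of all. GCGGGGGCG was in Hoxb8 alone against 2.91% of all, and GCGTGGGNG in Hoxa2 alone against 1.90% of all. The window of Hoxd9 held none of these letters. Hox windows had a median GC content of 57.7% and 14.5 CpG, against 52.7% and 7 over all windows. These are matches of letters only and do not show binding.

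Cells were kept from 1000 genes up and with no more than 10% of UMIs from mitochondria, which left 83513 of 103730 barcodes. Of these, 70278 were gonadal somatic cells after germ, endothelial, blood, immune, perivascular, duct, neural crest and muscle cells had been set aside. Libraries held 57574833 to 109689955 somatic UMIs, and any pair of libraries shared at most 46 cell barcodes (0.451%). From marker genes that include no Hox gene, 7338 cells were put in a progenitor class (coelomic epithelium, with Upk3b and Krt19), 17445 in an interstitial class (with Tcf21 and Pdgfra) and 28357 in a supporting class (with Sertoli, pre-granulosa or pre-supporting genes), and 17138 stayed unassigned. These are classes cut from a score, not types, and 21.5% of cells lay within 0.1 of a cut. By library that share was 16.2% to 21.6% in WT, 25.7% to 34.4% in -KTS KO and 18.0% to 21.0% in +KTS KO. Unassigned cells were 17.9% to 25.3%, 28.1% to 42.3% and 19.9% to 24.3% of somatic cells, in the same order. Levels are in CPM, the UMIs of a gene scaled to the same total of UMIs in each sum, and since the method counts 3′ ends they are not divided by gene length. Levels of the 3 classes share 1 scale over all 36 class sums. Values for a group are given for replicate 1 and replicate 2, in that order.

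The XY +KTS KO replicate 2 library stood apart before any comparison. It held 73 of the 78 mesonephric duct cells and all 21 skeletal muscle cells, and the 3 muscle markers summed to 36.5 CPM in its somatic cells against at most 0.47 CPM in any other library. Calls in comparisons with XY +KTS KO are given with and without it. Markers of neighbouring mesenchyme also differed with genotype, and none of the markers in those lists was at 0 in all libraries. The 6 nephrogenic and mesonephric mesenchyme markers summed to 4.93 to 11.2 CPM in WT, 20.6 to 37.4 CPM in -KTS KO and 8.09 to 18.7 CPM in +KTS KO somatic sums. The 4 limb and body wall markers summed to 2.66 to 7.88, 23.3 to 44.7 and 3.79 to 12 CPM. The markers within each list did not all move alike. Osr1 was at 0.642 to 3.02 CPM in WT and 11.8 to 25.7 CPM in -KTS KO, and Meox1 was higher too. Sall1 was lower, at 0.0944 to 0.292 and 0.0128 to 0.0347 CPM, and Six2 overlapped. In -KTS KO Eya1 was lower in XY and higher in XX, and Foxd1 was higher in XY and overlapped WT in XX. Prrx1 and Twist2 were higher, while Tbx4 and Tbx5 were at most 0.278 and 0.325 CPM in any library. Supporting-class cells made up 37.6% to 58.8% of somatic cells in WT, 13.6% to 17.2% in -KTS KO and 43.4% to 53.2% in +KTS KO.

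Across gonadal somatic cells the Hox genes together reached 279.9 to 489.6 CPM (median 391.8, 12 libraries), and most of that came from the middle and the upper end of HoxC and HoxD. Hoxd9 was the highest at a mean of 78.5 CPM on unscaled totals, rank 1900 among the 25974 features with a UMI, over the 12 libraries, although Hoxc8 lay above it in 3 of the 4 -KTS KO libraries. On that mean it was followed by Hoxc8 (58.4 CPM) and Hoxc6 (41.0 CPM), which pattern the thorax, by Hoxa7 (33.7 CPM) and by Hoxc9 (24.2 CPM). In all, 11 members had a mean of at least 10 CPM, 16 lay between 1 and 10 CPM and 12 below 1 CPM. HoxC gave a median of 40.2% of the summed Hox UMIs, HoxD 36.2%, HoxA 13.5% and HoxB 6.41%, over the 12 libraries. The order of HoxC and HoxD was not the same in all genotypes. HoxC was at 95.7 to 118 CPM and HoxD at 116 to 217 CPM in WT, with HoxD the higher in 3 of 4 libraries, while in -KTS KO HoxC was at 196 to 265 CPM and HoxD at 106 to 141 CPM. By number, central genes gave a median of 60.8%, posterior genes 35.5% and anterior genes 4.11% over the 12 libraries. Posterior genes lay above central ones in XY WT replicate 1 (202 against 161 CPM) and in XY +KTS KO replicate 2 (237 against 214 CPM). In the mean of the 4 WT libraries the level peaked at number 7 in HoxA and HoxB, at 8 in HoxC and at 9 in HoxD, and was lower from 10 on in each cluster. In XY WT replicate 1 Hoxb9 lay above Hoxb7, and in replicate 1 of both sexes Hoxc6 lay above Hoxc8. Hoxd9 was at 67.1 ± 0.486 CPM in the XX WT sums (SD, n = 2), Hoxd10 at 17 ± 9.31 CPM and Hoxd11 at 5.59 ± 6.06 CPM. Hoxc12 and Hoxb13, which mark the tail end of the body, were near or at 0.

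**Figure D1:**
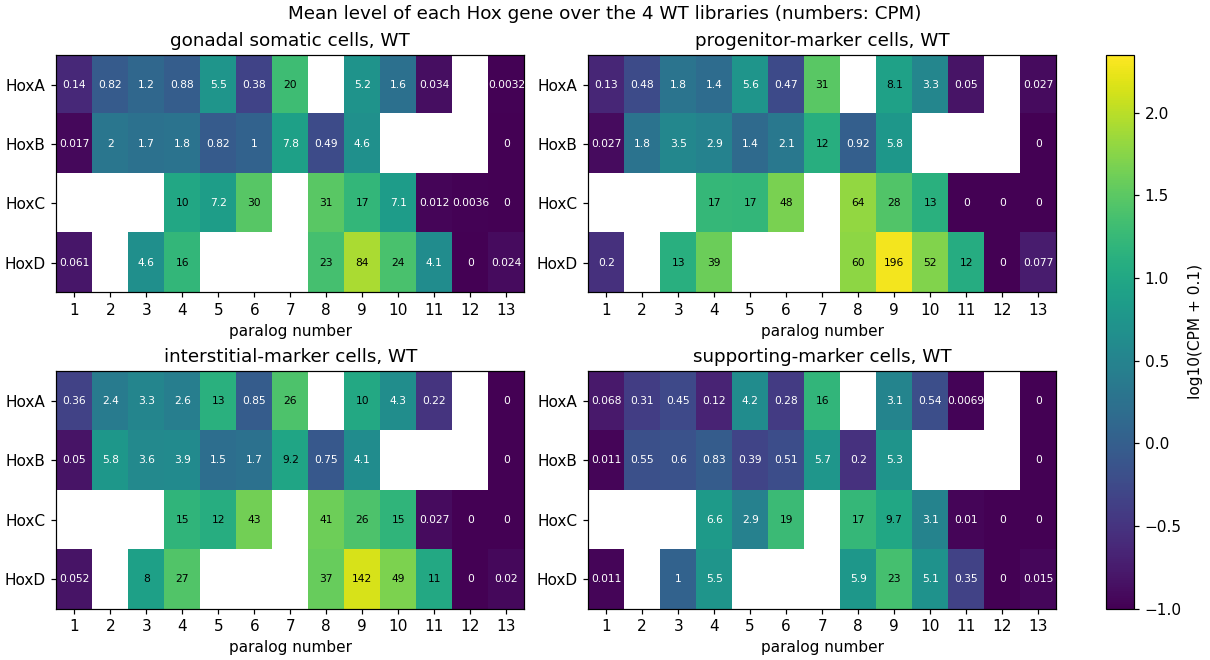
Mean level of each Hox gene over the 4 WT libraries, with clusters in rows and paralog numbers in columns, in all gonadal somatic cells and in the 3 marker classes. Numbers are CPM, colour is log10(CPM + 0.1), and white squares have no gene. Hoxd9 is the highest in all 4 panels, and the supporting-marker panel is the darkest.

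Cells of the supporting class held far less Hox RNA than the other classes of the same library. Summed over the 39 genes, the supporting class was at 119 to 216 CPM, the progenitor class at 414.6 to 740.1 CPM and the interstitial class at 468 to 856 CPM over the 12 libraries. Hoxd9 was at 192 and 196 CPM in progenitor cells of XX WT and at 205 and 189 CPM in XY WT. The supporting cells of the same gonads were at 16.9 and 21.2 CPM in XX WT and at 30.1 and 24.2 CPM in XY WT. Over the 12 libraries the highest supporting value was 30.1 CPM and the lowest value of the other classes 58.6 CPM, and Hoxd9 was lower in supporting cells than in both other classes in all 12 libraries. The difference from the progenitor class in WT was a log2 fold change of -3.13 (SE 0.14, edgeR FDR = 1.47e-06). Thinned to 5000 UMIs per cell, 24.4% to 56.8% of progenitor cells had a Hoxd9 UMI, 5.24% to 9.17% of supporting cells and 0.924% to 4.28% of germ cells (unthinned 54.6% to 83.6%, 13.7% to 24.5% and 4.63% to 13%). Median depth was 11238 to 23516.5 UMIs per progenitor cell, 10088.5 to 19200 per supporting cell and 14099 to 57925 per germ cell, and thinning left out 430 progenitor, 1767 supporting and 769 germ cells that were shallower. At matched depth the share in supporting cells lay above that of germ cells and overlapped that of endothelial cells (0% to 8.93%).

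The lower level in supporting cells held for nearly every Hox gene that could be tested in the 4 WT libraries. Of 27 members tested, 24 were lower in supporting than in progenitor cells, where 59.5% of all genes were called in either direction and 29.1% were called lower. Against interstitial cells 25 of 27 were lower, where 57.4% of all genes were called in either direction and 28.5% lower. With any 1 of the 4 libraries left out the counts were 23 to 24 and 24 to 26. Every one of these genes kept its call wherever it could be tested, and Hoxb8 could not be tested without XY WT replicate 2. Hoxb9 and Hoxa5 passed neither comparison, and Hoxa2, which patterns the hindbrain and the pharyngeal arches, passed only against interstitial cells. The difference was wide in HoxD, with log2 fold changes against progenitor cells of -4.98 for Hoxd11, -3.63 for Hoxd3, -3.49 for Hoxd10, -3.39 for Hoxd8 and -2.84 for Hoxd4. Hoxd10, a gene of the lumbosacral level, ranged over the 4 libraries from 27.1 to 62.3 CPM in progenitor cells, from 24 to 62.2 CPM in interstitial cells and from 1.99 to 9.52 CPM in supporting cells. Among the called genes the difference was narrowest in Hoxa7 (log2 fold change -1.02, SE 0.15, edgeR FDR = 0.000483) and Hoxb7 (log2 fold change -1.16, SE 0.13, edgeR FDR = 9.06e-05). Hoxa7 was at 25.4 to 36.9 CPM in progenitor and 10.3 to 21.8 CPM in supporting cells. Over the 12 libraries of all genotypes, the make-up of the Hox RNA differed as well. HoxD gave a median of 48.4% of Hox UMIs in progenitor cells and 20.2% in supporting cells, and HoxC 33.4% and 53.7%. In XY WT replicate 1 the HoxC share went the other way, with 36.5 of 136 CPM in supporting and 196 of 671 CPM in progenitor cells.

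The remaining genes called between supporting and progenitor cells had log2 fold changes of -3.57 (Hoxa4), -2.66 (Hoxc5), -2.60 (Hoxb3), -2.47 (Hoxa10) and -2.18 (Hoxb8). They were -2.06 for Hoxc10, -2.01 for Hoxa3, -2.0 for Hoxb6, -2.0 for Hoxc8, -1.96 for Hoxb5 and -1.90 for Hoxb4. For Hoxb2, Hoxc9, Hoxc4, Hoxa9 and Hoxc6 they were -1.77, -1.52, -1.48, -1.36 and -1.36. In each of these the supporting class was the lower, and of them only Hoxa9 had levels that overlapped between the classes.

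Interstitial and progenitor cells differed less, with 8 of 27 members called against 24.2% of all genes (11.8% higher and 12.4% lower). Hoxd3, Hoxd4, Hoxd8 and Hoxd9 were lower in interstitial cells, while a pair of anterior genes, Hoxa2 and Hoxb2, was higher. Hoxd8 was at 36.8 ± 11.5 CPM (SD, n = 4 libraries) in interstitial and 60 ± 6.31 CPM in progenitor cells, a log2 fold change of -0.76 (SE 0.14, edgeR FDR = 0.0062). Hoxd4 was at 27.2 ± 1.4 and 39.2 ± 1.14 CPM, a log2 fold change of -0.53 (SE 0.09, edgeR FDR = 0.00404). Hoxd3 (-0.68), Hoxd9 (-0.51), Hoxb7 (-0.43) and Hoxc8 (-0.69) were lower too, the last with overlapping levels. Hoxd3, Hoxd4, Hoxd8 and Hoxd9 were lower in interstitial than in progenitor cells in 12 of 12 libraries, the mutants included. Hoxb2, a hindbrain gene, was at 2.7 to 11.7 CPM in interstitial and 1.36 to 2.13 CPM in progenitor cells of WT, a log2 fold change of 1.51 (SE 0.30, edgeR FDR = 0.00871). Hoxa2 was at 1.32 to 3.65 and 0 to 1.18 CPM, a log2 fold change of 2.22 (SE 0.61, edgeR FDR = 0.0307). Only Hoxd4 passed whichever library was left out, and the count fell to 1 without XX WT replicate 1, to 1 without XX WT replicate 2 and to 3 without XY WT replicate 2.

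**Figure D2:**
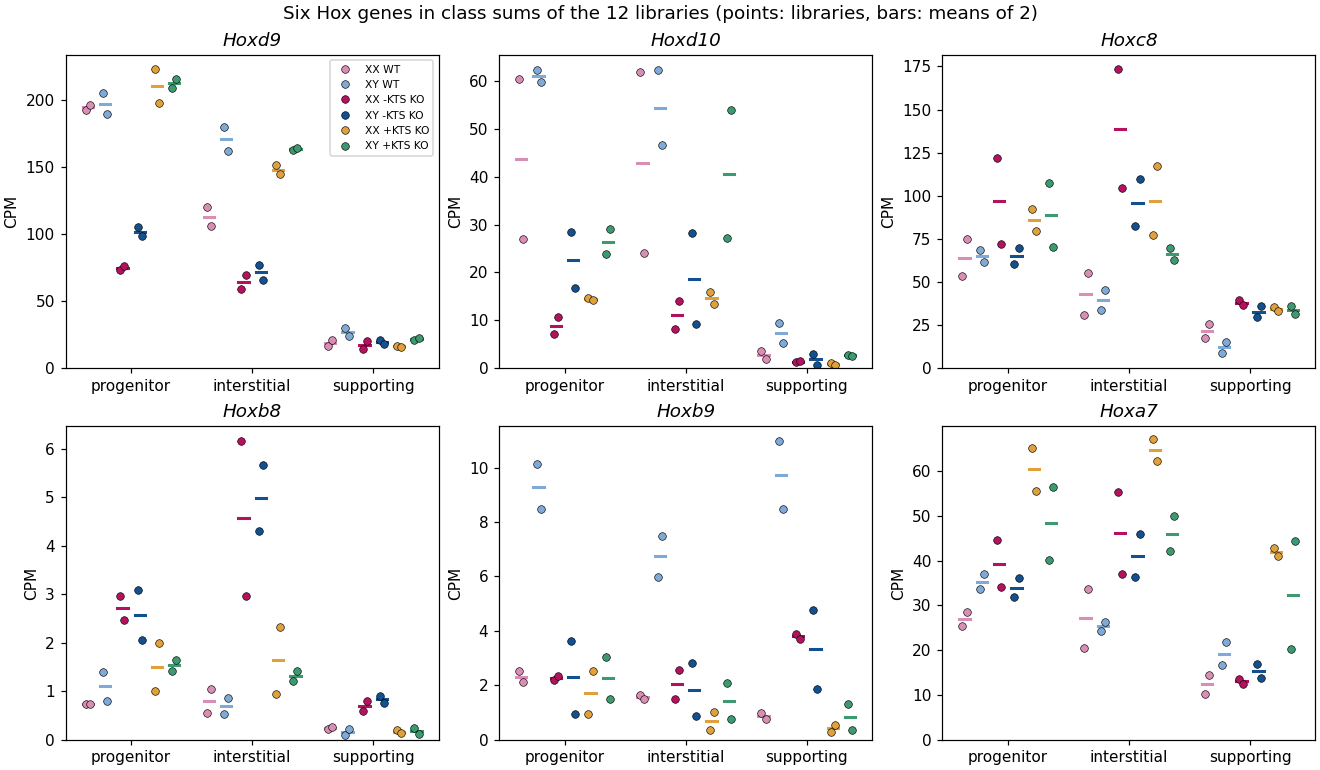
Level in CPM of 6 Hox genes in the progenitor, interstitial and supporting classes. Each point is 1 library, each bar the mean of the 2 libraries of a group, and colours give the 6 groups. Hoxd9 lies below 31 CPM in every supporting-class sum and above 58 CPM in every other sum, and in progenitor cells its 4 -KTS KO points lie below all 8 others.

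In the sums over all gonadal somatic cells of the -KTS KO, genes of HoxA, HoxB and HoxC were called higher than in WT of the same sex, all of them anterior or central but Hoxc9 in XX, while no HoxD gene was called higher. In XX, 11 of 30 members tested were called, all higher, against 16.5% of all genes called in either direction (6.85% higher, 9.64% lower). In XY, 14 of 30 were called, 13 of them higher, against 23.5% (11% higher, 12.5% lower). The median log2 fold change over the 30 members was 0.89 in XX and 1.04 in XY, against 0.01 in both for all genes tested.

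Hoxb8, a thoracic gene also used in blood progenitors, had the largest log2 fold change of the called genes in both sexes. It was at 4.03 and 2.63 CPM in XX -KTS KO and 0.387 and 0.548 CPM in XX WT. The corresponding XY values were 3.76 and 3.55 CPM against 0.445 and 0.575 CPM. All 4 mutant libraries lay above all WT libraries. The log2 fold change was 2.82 (SE 0.36, edgeR FDR = 0.00103) in XX and 2.84 (SE 0.36, edgeR FDR = 0.000658) in XY. Hoxc8, its paralog in HoxC, was at 129.9 and 83 CPM in XX -KTS KO against 26.3 and 38.5 CPM in XX WT, and at 65.7 and 80.1 against 29.1 and 28.9 CPM in XY. The groups did not overlap in either sex, and the log2 fold change was 1.72 (SE 0.24, edgeR FDR = 0.00183) in XX and 1.33 (SE 0.24, edgeR FDR = 0.00393) in XY. Hoxb7, which marks the Wolffian duct and ureteric bud among other tissues, was at 17.5 and 16.1 against 7.29 and 8.55 CPM in XX, and at 19.3 and 17.1 against 7.4 and 8.11 CPM in XY. Hoxc6 was at 55.2 and 51.2 against 29.2 and 32.4 CPM and at 47.3 and 57.7 against 30.4 and 28.9 CPM. These are changes of 1.08 and 1.23 for Hoxb7 and of 0.79 and 0.82 for Hoxc6 on the log2 scale, again without overlap. Hoxb7, Hoxb8, Hoxc6 and Hoxc8 passed in both sexes whichever library was left out, although with all kept cells summed, and not the gonadal somatic cells alone, Hoxc8 was the 1 of them called in XX.

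The other genes called in XX rested on single libraries more than these 4. Hoxb2 was at 9.42 and 4.83 CPM in XX -KTS KO and 1.49 and 2.93 CPM in XX WT, and Hoxb6 at 3.21 and 2.41 against 1.05 and 1.16 CPM. Hoxb3, a gene of the hindbrain and neck, was at 5.03 and 3.35 against 1.71 and 2.24 CPM, and Hoxb5 at 1.97 and 1.58 against 0.56 and 0.865 CPM. Hoxa3, needed for the thymus and parathyroid, was at 3.6 and 2.23 against 1.05 and 1.55 CPM. In all of these the mutant pair lay above the WT pair. Hoxa7 was at 42.6 and 33.6 against 15.5 and 20.6 CPM, and Hoxc9 at 34 and 32.5 against 13.8 and 14.7 CPM. Their log2 fold changes were 1.68 (Hoxb2), 1.34 (Hoxb6), 1.09 (Hoxb3), 1.31 (Hoxb5), 1.16 (Hoxa3), 1.08 (Hoxa7) and 1.22 (Hoxc9). The count of 11 became 4 without XX WT replicate 1, 5 without XX WT replicate 2 and 4 without XX -KTS KO replicate 1, and 9 without XX -KTS KO replicate 2. On sums of all kept cells, germ, endothelial and blood cells included, it was 1, with 10 at an unadjusted p under 0.05.

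In XY the called genes included Hoxa2 to Hoxa4 and all HoxB genes from Hoxb2 to Hoxb8 but Hoxb5. Hoxa4 was at 3.58 and 3.98 CPM in the XY mutant and 0.712 and 0.46 CPM in XY WT, a log2 fold change of 2.68 (SE 0.59, edgeR FDR = 0.01). Hoxc5 was at 24 and 23.6 against 4.82 and 3.93 CPM, a log2 fold change of 2.44 (SE 0.40, edgeR FDR = 0.00233). Hoxb2 was at 9.2 and 7.19 against 1.77 and 1.68 CPM (2.25). These are genes of the neck and hindbrain levels, and all were under 5 CPM in XY WT. Hoxb4 was at 5.92 and 7.08 against 1.28 and 1.78 CPM (2.08), and Hoxb6 at 3.39 and 4 against 0.839 and 1.02 CPM (1.99). Hoxb3 was at 4.11 and 5.09 against 1.31 and 1.44 CPM (1.74), and Hoxa2 at 2.1 and 2.25 against 0.75 and 0.59 CPM (1.69). No mutant value overlapped a WT value in these. Hoxa3 was at 2.75 and 3.71 against 1.13 and 1.18 CPM (1.48), and Hoxc4 at 15.8 and 21.6 against 7.32 and 7.46 CPM (1.34). The member that fell was Hoxd9, at 69.6 and 62.4 CPM against 118 and 82.6 CPM, a log2 fold change of -0.60 (SE 0.16, edgeR FDR = 0.0227). Of the 14 calls, 8 held whichever library was left out (Hoxa2, Hoxb3, Hoxb6, Hoxb7, Hoxb8, Hoxc5, Hoxc6 and Hoxc8), and that of Hoxd9 was lost without XY WT replicate 1 or without either XY -KTS KO library. On sums of all kept cells the count was 12, without Hoxb4 and Hoxd9.

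The share of supporting-class cells, which hold little Hox RNA, was lower in the same mutant in the ranges given above, and a sum over all somatic cells changes with the mix of cells as well as with the level per cell. In such sums fewer cells of a type and less RNA per cell cannot be told apart. Values within the marker classes follow for that reason. In those, too, neighbouring mesenchyme markers differed with genotype, and not in 1 direction. In interstitial-class sums the nephrogenic list was at 6.71 to 27.0 CPM in WT, 39.5 to 68.8 CPM in -KTS KO and 17.7 to 48.6 CPM in +KTS KO. In supporting-class sums its markers went different ways. Foxd1 was at 7.26 and 9.12 CPM in XX WT and 0.837 and 0.127 CPM in XX -KTS KO, and Eya1 at 3.84 and 3.16 CPM in XY WT and 0.277 and 0.419 CPM in XY -KTS KO. Osr1 was at 0.116 to 0.774 CPM in WT and 0.837 to 1.66 CPM in -KTS KO. The limb and body wall list was at 1.58 to 4.67 CPM in WT and 9.88 to 28.0 CPM in -KTS KO progenitor sums. Cells with at least 2 markers of either mesenchyme were 10.3% to 23.7% of the interstitial class in -KTS KO and 0.105% to 4.45% in WT. With such cells set aside, a step added after the data had been seen, 183 of 187 calls of Hox genes over all comparisons remained and 4 were lost. That total pools the -KTS KO calls with those of +KTS KO and those between WT classes, where few such cells were removed. It is given here without a split by comparison, so it does not show how many -KTS KO calls remained.

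**Figure D3:**
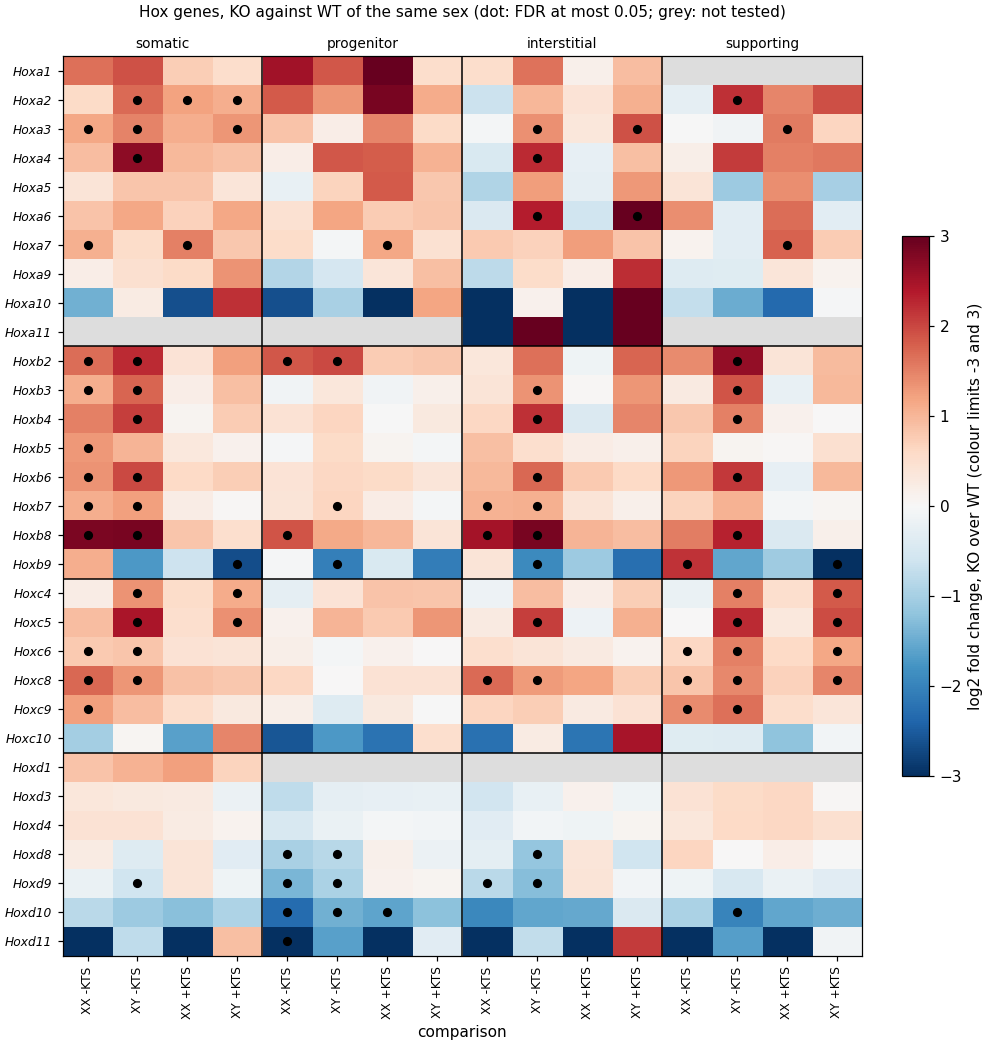
Log2 fold change of each tested Hox gene in each mutant against WT of its sex (columns), in gonadal somatic sums and in the 3 marker classes. Red is higher and blue lower in the mutant, colours stop at -3 and 3, a dot marks an edgeR FDR of at most 0.05, and grey was not tested. In -KTS KO columns the HoxB rows from Hoxb2 to Hoxb8 are mostly red, and Hoxd8 to Hoxd11 are blue in progenitor and interstitial columns.

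Within the progenitor class of the -KTS KO, Hoxd8, Hoxd9 and Hoxd10 were lower in both sexes. Of these, Hoxd10 was also called lower in XX +KTS KO, with values given further on. Hoxd9 was at 73.4 and 76.1 CPM in XX -KTS KO and 192 and 196 CPM in XX WT. In XY it was at 105 and 98.6 CPM against 205 and 189 CPM. Each mutant pair lay far under its WT pair, and the 4 +KTS KO libraries were at 223 and 198 CPM (XX) and 209 and 215 CPM (XY). The log2 fold change of the -KTS KO was -1.37 (SE 0.14, edgeR FDR = 0.000216) in XX and -0.95 (SE 0.14, edgeR FDR = 0.00107) in XY. Hoxd8 was at 26.9 and 28.6 against 53.7 and 56.1 CPM in XX and at 32.8 and 40.1 against 62.4 and 67.6 CPM in XY. Its log2 fold change was -0.98 (SE 0.15, edgeR FDR = 0.00256) in XX and -0.83 (SE 0.15, edgeR FDR = 0.00389) in XY. Both genes passed in both sexes whichever library was left out. Hoxd10 was at 7.09 and 10.7 against 60.4 and 27.1 CPM in XX and at 28.5 and 16.8 against 62.3 and 59.8 CPM in XY. Its log2 fold change was -2.31 (SE 0.36, edgeR FDR = 0.0026) in XX, where it held in every case, and -1.44 (SE 0.33, edgeR FDR = 0.0146) in XY, where it was lost without either XY WT library or without XY -KTS KO replicate 2. Hoxd11, used in the forearm and the kidney, was at 0.175 and 0.275 CPM in XX -KTS KO and 24.4 and 3.36 CPM in XX WT, so that the WT libraries themselves differed widely. Its log2 fold change of -5.91 (SE 1.64, edgeR FDR = 0.0478) was lost without XX WT replicate 1 and without either XX -KTS KO library.

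Hoxb2, Hoxb7 and Hoxb8 moved the other way in the same class. Hoxb2 was at 7.35 and 5.5 against 1.36 and 2.13 CPM in XX and at 7.87 and 6.89 against 2.05 and 1.61 CPM in XY, log2 fold changes of 1.87 and 1.98. Hoxb8 was at 2.97 and 2.47 against 0.732 and 0.738 CPM in XX (1.89), and Hoxb7 at 22.8 and 16.6 against 12.2 and 12.9 CPM in XY (0.65). Hoxb9, the last HoxB gene expressed in the trunk, was an exception, at 3.62 and 0.951 against 10.1 and 8.48 CPM in XY (-2.05). In all, 6 of 29 members were called in each sex, 2 higher and 4 lower, against 7.55% of all genes in XX (3.28% higher, 4.28% lower) and 12.4% in XY (5.69% higher, 6.75% lower). Without XX WT replicate 1 the XX count was 3, without XX -KTS KO replicate 1 it was 3 and without XX -KTS KO replicate 2 it was 4. In XY the count ran from 3 (without XY WT replicate 2) to 5.

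The interstitial class of the -KTS KO showed both movements. Hoxd9 was at 58.6 and 69.4 against 119.8 and 106 CPM in XX and at 77.1 and 65.7 against 179.9 and 162 CPM in XY. Its log2 fold change was -0.80 (SE 0.15, edgeR FDR = 0.0107) in XX and -1.27 (SE 0.15, edgeR FDR = 0.000401) in XY. Hoxd8 was at 19.3 and 22.5 against 48.5 and 44.5 CPM in XY (-1.17). In XX, Hoxd8 was at 19.9 and 23.8 against 29.1 and 25 CPM and did not pass. Hoxc8 rose instead, from 30.7 and 55.4 CPM in XX WT to 173 and 104 CPM in XX -KTS KO and from 33.6 and 45.5 to 82.6 and 109.6 CPM in XY, log2 fold changes of 1.70 and 1.27. Hoxb8 was at 6.16 and 2.97 against 0.543 and 1.04 CPM and at 4.31 and 5.68 against 0.54 and 0.859 CPM (2.50 and 2.85). Hoxb7 was at 20.3 and 17 against 7.81 and 10.4 CPM and at 19.2 and 20.2 against 8.88 and 9.84 CPM (1.04 and 1.06). So members of the eighth number went up in HoxB and HoxC and down in HoxD in XY. The XX count was 4 of 30 against 4.96% of all genes (1.65% higher, 3.31% lower), and became 0 without XX WT replicate 1 or without XX -KTS KO replicate 1, and 3 without XX -KTS KO replicate 2.

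In XY interstitial cells 13 of 30 members were called, 10 higher and 3 lower, against 17.5% of all genes (7.87% higher, 9.61% lower). Beside those given, the higher genes were Hoxa6 (2.37), Hoxa4 (2.24), Hoxb4 (2.19), Hoxc5 (2.08), Hoxb6 (1.72), Hoxa3 (1.37) and Hoxb3 (1.35), by log2 fold change. Hoxb4, for example, was at 7.7 and 11.3 CPM against 1.37 and 2.89 CPM. Hoxb9 fell, from 5.99 and 7.5 to 2.81 and 0.856 CPM (-1.90). Hoxb7, Hoxd8 and Hoxd9 passed whichever library was left out. The count was 3 without XY WT replicate 1, 5 without XY WT replicate 2, 4 without XY -KTS KO replicate 2 and 12 without XY -KTS KO replicate 1.

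In the supporting class of the XY -KTS KO, Hoxa2 and genes of HoxB and HoxC were higher and Hoxd10 was lower. The class pools pre-supporting, Sertoli and pre-granulosa cells, and the markers of these differed between the groups compared. In this class the 7 Sertoli markers summed to 4111 and 2547 CPM in XY WT and to 129 and 135 CPM in XY -KTS KO, and Foxl2 of pre-granulosa cells was at 32.7 and 40.5 CPM in XX WT and 1.47 and 2.41 CPM in XX -KTS KO. The limb and body wall markers summed to 0.557 to 2.5 CPM in WT and 8.99 to 10.6 CPM in -KTS KO supporting sums, and the 6 mesonephric duct and tubule markers to 1.02 to 2.58 and 3.30 to 8.86 CPM. Most of the latter difference was in Pax2, at 0.555 to 1.10 CPM in WT and 2.16 to 8.30 CPM in -KTS KO. In XX, Ret was at 0.278 and 0.731 CPM in WT and 0 in both -KTS KO libraries, and Gata3 overlapped. The part of all these markers in the differences that follow was not tested, and a different state of the cells and a different level in the same state cannot be told apart. Hoxc6 was at 35.5 and 43.6 CPM against 12.2 and 15.7 CPM in XY WT, a log2 fold change of 1.51 (SE 0.18, edgeR FDR = 0.000235). Hoxc8 was at 29.5 and 36 against 8.97 and 15.4 CPM (log2 fold change 1.44, SE 0.25, edgeR FDR = 0.00218), and Hoxc9 at 38.5 and 27.7 against 8.16 and 12.8 CPM (log2 fold change 1.66, SE 0.40, edgeR FDR = 0.0111). Every mutant library was above both WT libraries. Hoxb2 was at 1.87 and 3 against 0.306 and 0.47 CPM (2.64), and Hoxc5 at 6.28 and 5.68 against 1.33 and 1.22 CPM (2.24). Hoxc4 was at 9.94 and 9.64 against 2.86 and 4.06 CPM (1.51). Hoxb8 (2.31), Hoxa2 (2.19), Hoxb6 (2.11), Hoxb3 (1.89) and Hoxb4 (1.51) were also higher, all from at most 1.11 CPM in XY WT. Hoxd10 was at 3.06 and 0.703 against 9.52 and 5.28 CPM (-1.98). In all 12 of 28 members were called against 26.8% of all genes (12.3% higher, 14.5% lower), and Hoxb2, Hoxb6, Hoxc4, Hoxc5, Hoxc6 and Hoxc8 held whichever library was left out. The count was 6 without XY WT replicate 1 and 7 without XY -KTS KO replicate 2.

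In XX the supporting class of the -KTS KO gave 4 calls of 28, all higher, against 13.6% of all genes (6.24% higher). They were Hoxb9 at 3.9 and 3.7 CPM against 0.972 and 0.754 CPM in XX WT (log2 fold change 2.17, SE 0.58, edgeR FDR = 0.0322), Hoxc9 at 25.1 and 21.7 against 8.65 and 9.25 CPM (1.42), Hoxc8 at 39.4 and 36.6 against 17.8 and 25.7 CPM (0.83) and Hoxc6 at 35.8 and 38.2 against 22.2 and 26.7 CPM (0.62). The groups did not overlap, but each call was lost whichever of the XX WT and XX -KTS KO libraries was left out. Hoxd9 was at 14.3 and 20.4 CPM in XX -KTS KO and 16.9 and 21.2 CPM in XX WT in this class, with overlapping levels. The supporting sums held 583 to 890 cells per library in -KTS KO and 2521 to 3536 in WT.

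Whether the -KTS KO effect differed between classes was tested as well, in a fit of all 36 class sums, a test added after the data had been seen. For Hoxc8 the effect was larger in interstitial than in progenitor cells by 1.21 on the log2 scale (SE 0.20, edgeR FDR = 0.00188), and for Hoxc9 by 0.81 (SE 0.18, edgeR FDR = 0.0146). Those were the 2 members called in that comparison, where 3.45% of all genes were, and the count was 4 without XY +KTS KO replicate 2, which adds Hoxa7 and Hoxc10. The effect was higher in supporting than in progenitor cells by 0.83 for Hoxd9 (SE 0.10) and by 1.21 for Hoxd8 (SE 0.17). In supporting cells Hoxd8 was at 6.38 and 8.99 CPM in XX -KTS KO against 4.91 and 4.97 CPM in XX WT and at 7.25 and 6.45 against 8.23 and 5.47 CPM in XY, and edgeR called it in neither sex. Between these classes 11 members were called, all with the higher effect in supporting cells, against 30.9% of all genes called (14.1% with the higher effect).

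In +KTS KO, Hoxa7 was called higher in XX, as also in the somatic sums of XX -KTS KO given above, and Hoxb9 lower in XY. In XX somatic sums 2 of 30 members were called, both higher, against 5.22% of all genes (2.45% higher, 2.77% lower). Hoxa7, used in thoracic vertebrae, was at 52.6 and 50.1 CPM in XX +KTS KO and 15.5 and 20.6 CPM in XX WT and rose by 1.51 (SE 0.24, edgeR FDR = 0.00978) on the log2 scale. Hoxa2 was at 2 and 2.56 against 0.827 and 1.12 CPM (log2 fold change 1.22, SE 0.29, edgeR FDR = 0.0424). For neither gene did the mutant overlap WT. The count was 0 without XX WT replicate 1, without XX WT replicate 2 or without XX +KTS KO replicate 2, and 1 without XX +KTS KO replicate 1, with the replicate block or on sums of all kept cells (Hoxa7). In progenitor cells Hoxa7 was at 65.2 and 55.6 against 25.4 and 28.6 CPM (1.17), and Hoxd10 at 14.7 and 14.3 against 60.4 and 27.1 CPM (-1.57). These were the 2 of 29 members called there, against 1.93% of all genes (1.29% higher, 0.635% lower), and the count was 0 without XX WT replicate 1 and 1 without any of the other 3 libraries compared. In supporting cells Hoxa7 was at 42.8 and 41 against 10.3 and 14.5 CPM (log2 fold change 1.78, SE 0.33, edgeR FDR = 0.00986), and Hoxa3 at 1.16 and 0.804 against 0.356 and 0.326 CPM (log2 fold change 1.55, SE 0.39, edgeR FDR = 0.0387). They were the 2 of 28 called against 7.67% of all genes (3.30% higher), with 0 without XX WT replicate 1 or XX +KTS KO replicate 2 and 1 without XX +KTS KO replicate 1. Hoxa7 in XX was thus among the calls in somatic sums, in progenitor cells and in supporting cells, with no overlap of the groups in any of them. In interstitial cells, where it was at 67.1 and 62.3 against 20.5 and 33.7 CPM, edgeR called 0 of 30 members against 0.405% of all genes, 5 members had an unadjusted p under 0.05, and DESeq2 called 3.

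In XY +KTS KO somatic sums 5 of 30 members were called, 4 higher and 1 lower, against 13% of all genes (6.38% higher, 6.66% lower). Hoxb9 was the lower, at 1.8 and 0.745 CPM against 8.29 and 7.8 CPM in XY WT, a log2 fold change of -2.67 (SE 0.61, edgeR FDR = 0.0213). Hoxc5 was at 15.6 and 7 against 4.82 and 3.93 CPM (1.36), and Hoxa3 at 2.59 and 3.19 against 1.13 and 1.18 CPM (1.32). Hoxc4 was at 18.9 and 12.9 against 7.32 and 7.46 CPM (1.10), and Hoxa2 at 1.18 and 1.68 against 0.75 and 0.59 CPM (1.09). No mutant value overlapped a WT value in these 5 genes. Without XY +KTS KO replicate 2, the library with muscle and duct cells, 2 calls were left, Hoxc4 and Hoxc5. Without XY +KTS KO replicate 1 the count was 11, without XY WT replicate 1 it was 0 and without XY WT replicate 2 it was 1. With the replicate number as a block it was 3, and fitted on the 2 groups compared alone it was 0, with 10 at an unadjusted p under 0.05. On sums of all kept cells it was 2, Hoxb9 and Hoxc4.

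In the supporting class of the XY +KTS KO, Hoxb9 was lower and 4 central HoxC genes were higher. The 7 Sertoli markers summed to 453 and 146 CPM in this mutant class, against the XY WT values given above, and Foxl2 was at 67.3 and 17.1 CPM against 1.14 and 2.73 CPM in XY WT. The part of such differences within the class in the Hox values was not tested. Hoxb9 was at 1.3 and 0.371 CPM against 11 and 8.48 CPM in XY WT, a log2 fold change of -3.56 (SE 0.57, edgeR FDR = 0.00246). Hoxc4 was at 12.8 and 12.2 against 2.86 and 4.06 CPM (log2 fold change 1.85, SE 0.24, edgeR FDR = 0.000888), and Hoxc5 at 6.46 and 3.52 against 1.33 and 1.22 CPM (log2 fold change 1.96, SE 0.34, edgeR FDR = 0.00347). The mutant was clear of WT in every library for these. Hoxc6 was at 29.7 and 32.9 against 12.2 and 15.7 CPM (1.16), and Hoxc8 at 36.2 and 31.3 against 8.97 and 15.4 CPM (1.46). These 5 of 28, against 20.1% of all genes called (9.16% higher, 11% lower), held whichever library was left out, XY +KTS KO replicate 2 included, without which the count was 6. In interstitial cells Hoxa6 (1.65 and 1.97 against 0.245 and 0.156 CPM, 3.07) and Hoxa3 (6.81 and 8.05 against 1.72 and 2.19 CPM, 1.92) were called, 2 of 30 against 4.24% of all genes (2.21% higher). That count was 0 without either XY WT library, 8 without XY +KTS KO replicate 1 and 2 without replicate 2. In progenitor cells edgeR called 0 of 29 members against 2.82% of all genes, 5 had an unadjusted p under 0.05, DESeq2 called 3, and the edgeR count was 2 without XY +KTS KO replicate 2 and 1 without replicate 1.

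Hoxb9 separated the sexes in WT. In the somatic sums it was at 8.29 and 7.8 CPM in XY WT and 1.33 and 1.13 CPM in XX WT and its log2 difference was 2.71 (SE 0.61, edgeR FDR = 0.0183). Among supporting cells the values were 11 and 8.48 CPM in XY and 0.972 and 0.754 CPM in XX. All 8 mutant libraries lay between 0.447 and 3.71 CPM in the somatic sums, under both XY WT libraries. Hoxd8 was at 32.6 and 23.8 CPM in XY WT and 18.4 and 17.1 CPM in XX WT (log2 fold change 0.67, SE 0.18, edgeR FDR = 0.0345), and Hoxd9 at 118 and 82.6 against 66.7 and 67.4 CPM (log2 fold change 0.58, SE 0.16, edgeR FDR = 0.0399). These were the 3 of 30 members called between the sexes, against 13.9% of all genes (7.25% higher, 6.64% lower), and the count was 0 without XX WT replicate 1, XX WT replicate 2 or XY WT replicate 1 and 3 without XY WT replicate 2. On sums of all kept cells Hoxb9 was the 1 gene called. The 5 neural crest markers summed to 8 and 13.6 CPM in the XY WT somatic sums and to at most 0.916 CPM in any other library, and their part in these differences was not tested. No member's genotype effect was called as different between XX and XY. For -KTS KO edgeR called 0 of 30 (3.14% of all genes, 1.27% higher and 1.87% lower), with 5 at an unadjusted p under 0.05 and 1 by DESeq2. For +KTS KO it called 0 of 30 (4.01% of all genes, 1.88% higher and 2.12% lower), with 6 at an unadjusted p under 0.05 and 2 by DESeq2, and the edgeR count was 3 without XY +KTS KO replicate 1 and 1 without XY +KTS KO replicate 2 or XY WT replicate 2.

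The mutants were also set against each other, without WT. In XX somatic sums Hoxb8 (log2 fold change 1.99, SE 0.35, edgeR FDR = 0.00332), Hoxb7 (0.86) and Hoxc8 (0.85) were higher in -KTS KO than in +KTS KO, and Hoxd9 was lower (-0.59). That is 4 of 30 against 18.9% of all genes (8.80% higher, 10.1% lower). In XY, Hoxb8 (log2 fold change 2.34, SE 0.35, edgeR FDR = 0.00137), Hoxa4 (1.81), Hoxb6 (1.26), Hoxb7 (1.19) and Hoxc6 (0.45) were higher, 5 of 30 against 22% of all genes (10% higher). Hoxb8 was at 0.599 and 1.09 CPM in XX +KTS KO and 0.65 and 0.792 CPM in XY +KTS KO, under each -KTS KO library. Hoxb8 passed in both sexes and Hoxb7 in XY whichever library was left out. In XX the count was 1 without XX -KTS KO replicate 1 and 2 without either XX +KTS KO library, and in XY it was 2 without XY -KTS KO replicate 2, 8 without XY +KTS KO replicate 1 and 7 without XY +KTS KO replicate 2. On sums of all kept cells it was 1 in XX, Hoxd9, and 0 in XY, with 5 at an unadjusted p under 0.05.

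Hoxa9, Hoxa10, Hoxa11 and Hoxc10 were highest in a single library, XY +KTS KO replicate 2. Hoxc10, a gene of the hindlimb and lumbar level, was at 3.26 and 37.5 CPM in the XY +KTS KO somatic sums, and the other 11 libraries lay between 1.99 and 11.3 CPM. Hoxa9 was at 3.75 and 26.5 CPM, with 3.75 to 10.9 CPM in the other 11. Hoxa10 was at 0.408 and 15 CPM, with at most 2.97 CPM elsewhere. In each of these replicate 2 lay above all 11 others while replicate 1 did not. Hoxa11 was at 0.022 and 2.34 CPM and at most 0.107 CPM elsewhere. The excess was larger in the interstitial class, where Hoxc10 was at 5.87 and 114 CPM, Hoxa9 at 6.42 and 71 CPM and Hoxa10 at 1.1 and 48.1 CPM. Hoxd11 was at 3.4 and 26.5 CPM there, and at 32.8 and 2.46 CPM in XX WT, so replicate 1 of XX WT was the higher for this gene. In the interstitial class of XY +KTS KO replicate 2, 441 of 1449 cells (30.4%) had UMIs of at least 2 of Hoxa10, Hoxa11, Hoxc10 and Hoxd11, against at most 12.4% in any other library. At least 2 markers of nephrogenic or of limb and body wall mesenchyme were seen in 67 of the 1449 cells and in 37 of the 441. None of Hoxa9, Hoxa10, Hoxc10, Hoxd10 and Hoxd11 was called in XY +KTS KO against WT in any class. XX WT replicate 1 stood above replicate 2 in Hoxc10, Hoxd10 and Hoxd11, with Hoxd11 at 9.87 and 1.31 CPM, Hoxc10 at 9.35 and 4.19 CPM and Hoxd10 at 23.6 and 10.4 CPM, and 95 of its 769 interstitial cells had at least 2 of the 4 genes.

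**Figure D4:**
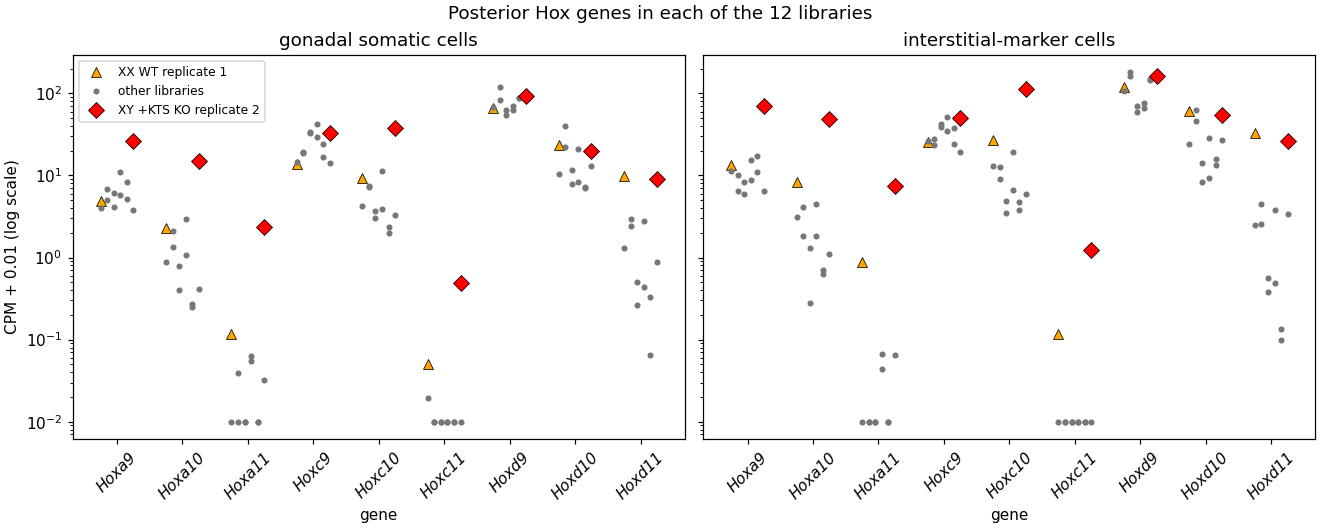
Level of 9 posterior Hox genes in each of the 12 libraries, in gonadal somatic cells (left) and in the interstitial class (right), as CPM + 0.01 on a log axis. Red diamonds are XY +KTS KO replicate 2, orange triangles XX WT replicate 1 and grey dots the other 10 libraries. The red diamonds are the highest points for Hoxa9, Hoxa10, Hoxa11, Hoxc10 and Hoxc11.

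Hox proteins bind DNA together with TALE homeodomain cofactors of the Pbx, Meis and Pknox families, and several Meis genes were higher in -KTS KO. In XX somatic sums 3 of 9 listed cofactors were higher and 1 lower, against 16.5% of all genes called, and in XY 5 were higher and 1 lower, against 23.5%. Meis2 was at 204 ± 15.2 CPM in the XX mutant (SD, n = 2) against 52.4 ± 15 CPM in XX WT and rose by 1.96 (SE 0.29, edgeR FDR = 0.00225) on the log2 scale. In XY it was at 189 ± 42.2 against 52.7 ± 4.69 CPM (log2 fold change 1.84, SE 0.29, edgeR FDR = 0.00185). Meis3 (1.44 in XX, 1.78 in XY) and Meis1 (0.84 and 1.30) were higher too, while Pknox2 was lower (-0.87 and -1.77). Within the classes edgeR called Meis2 and Meis3 higher in XX in progenitor and supporting cells and in XY in all 3 classes. In interstitial cells of XX -KTS KO edgeR called Pknox2 alone, lower, with 4 of the 9 at an unadjusted p under 0.05, and DESeq2 called Pknox2 and Meis3. Meis1 was called by edgeR in no class in XX, and in interstitial and supporting cells in XY. In the somatic sums of XY +KTS KO Pbx2 (0.70) and Pbx3 (0.51) were higher, and in the somatic sums of XX +KTS KO edgeR called 0 of the 9, with 2 at an unadjusted p under 0.05 and 0 by DESeq2. Without XY +KTS KO replicate 2 the XY calls of Pbx2 and Pbx3 held and 2 more cofactors were called, Pknox1 higher and Pbx4 lower. Within the classes of XX +KTS KO Pbx2 was called higher in progenitor cells and Meis3 lower in supporting cells.

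Of 14 regulators of Hox transcription listed, 12 could be tested. In the somatic sums of XX -KTS KO Rarg, Cbx2 and Bmi1 were higher and Cdx1 and Suz12 lower, 5 of 12 against 16.5% of all genes. Within its classes edgeR called Cdx1 lower in interstitial cells, Rnf2 and Bmi1 higher in supporting cells and 0 of 12 in progenitor cells (3 at an unadjusted p under 0.05, 1 by DESeq2). In XY -KTS KO sums 4 were higher, Rarb, Rarg and Gdf11 among them, and Cdx1 was lower, against 23.5% of all genes. Rarb was also called higher in each of the 3 classes in XY. Rarb, a retinoic acid receptor and itself a target of retinoic acid, was at 7.55 ± 1 CPM in the XY mutant and 0.547 ± 0.162 CPM in XY WT (log2 fold change 3.79, SE 0.72, edgeR FDR = 0.00489). Cdx1, an activator of central Hox genes, fell from 0.585 ± 0.27 to 0.145 ± 0.00131 CPM in XY (-2.0), and Gdf11, a signal that advances posterior Hox genes in the trunk, was at 13.4 ± 1.52 against 6.15 ± 0.401 CPM (1.12). In the somatic sums of XX +KTS KO edgeR called 0 of the 12, with 0 at an unadjusted p under 0.05 and 0 by DESeq2. In those of XY +KTS KO edgeR called Gdf11 alone (0.92) and DESeq2 called 3. Without XY +KTS KO replicate 2 Gdf11 was again the 1 gene called, at 0.63. In supporting cells of XY +KTS KO edgeR called Gdf11 higher and Ezh2 lower, and both held without that library.

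Of the genes listed as flanking the clusters, 10 could be tested, and their directions were mixed. In the somatic sums of XX -KTS KO Smug1 (0.74), Cbx5 (0.66) and Lnpk (0.46) were higher and Hibadh (-0.76) lower. In those of XY -KTS KO Skap1 (3.26) and Smug1 (0.85) were higher and Lnpk (-0.41) lower. Smug1 and Cbx5 lie beside HoxC, Lnpk beside HoxD, Hibadh beside HoxA and Skap1 beside HoxB. In the somatic sums of XY +KTS KO Hibadh was higher (0.49) and Lnpk lower (-0.54), and in those of XX +KTS KO edgeR called 0, with 4 at an unadjusted p under 0.05 and 1 by DESeq2. Without XY +KTS KO replicate 2 the call of Lnpk held and that of Hibadh was lost (0.46, edgeR FDR = 0.0603), while Calcoco1 was called higher (0.79, edgeR FDR = 0.0187). Wt1, the altered gene, was at 172 to 305 CPM in the 12 somatic sums and was called by edgeR in none of the 4 comparisons of a mutant with WT in those sums. Its largest log2 fold change there was 0.53 in XY -KTS KO (edgeR FDR = 0.0565), the 1 comparison in which DESeq2 called it (adjusted p = 0.0263). In interstitial cells of XY -KTS KO it was higher by 1.01 (SE 0.18, edgeR FDR = 0.00411) on the log2 scale. In those of XY +KTS KO it was higher by 0.71, called by DESeq2 and not by edgeR, and by 0.85 without replicate 2. UMIs of 3′ ends do not separate its splice variants, so these levels do not check the labels of the mutants.

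Among the cells set aside from the gonadal somatic cells, duct and endothelial cells were led by Hoxb7, perivascular cells by Hoxc8, and germ and erythroid cells by Hoxd9 and then Hoxc8, like the gonadal cells. In 73 mesonephric duct cells of XY +KTS KO replicate 2, the 39 genes summed to 1034 CPM, led by Hoxb7 (162 CPM), Hoxd4 (121 CPM), Hoxb6 (116 CPM), Hoxb8 (114 CPM), Hoxb2 (97.5 CPM) and Hoxb4 (81.8 CPM). Hoxd9 (39.4 CPM) and Hoxc8 (5.45 CPM), the leading genes of the gonadal cells, were lower there. These duct values come from 1 library and have no replicate. Endothelial cells (2153 cells, 12 libraries) summed to 204 to 449 CPM, with Hoxb7 at a median of 42.2 CPM, Hoxa7 at 32.6 CPM, Hoxa9 at 26.3 CPM and Hoxb8 at 24.3 CPM. Perivascular cells, given for the 6 libraries with enough of them (189 cells), were led by Hoxc8 at a median of 117 CPM and summed to 519.9 to 693 CPM. Germ cells (8582 cells) were low at 14.3 to 51.0 CPM, and erythroid cells ranged from 13.9 to 194 CPM. After thinning to 5000 UMIs, a UMI of any Hox gene was seen in 85.9% to 95.8% of progenitor, 86.0% to 94.5% of interstitial, 35.9% to 59.9% of supporting, 62.1% to 89.5% of endothelial and 6.93% to 17.7% of germ cells. In the germ cell share free RNA and RNA of the cell itself cannot be told apart, and the supporting share was above it in all libraries.

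**Figure D5:**
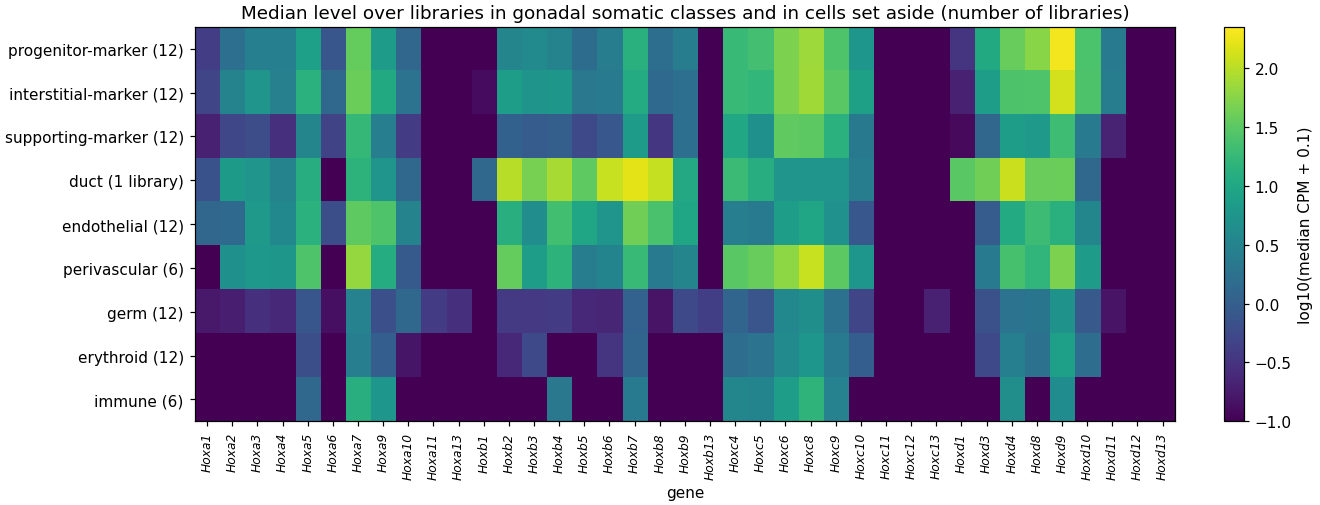
Median level over libraries of each of the 39 Hox genes, as log10(CPM + 0.1), in the 3 gonadal marker classes and in the cells set aside, with the number of libraries in brackets. Hoxb7 is the highest gene in duct and in endothelial cells, and germ cells are dark throughout.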

How the data were processed

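Gonads were dissociated and their cells profiled by 10x 3′ single-cell RNA sequencing in 12 libraries, 2 for each sex and genotype. The authors deposited, per library, a matrix of UMI counts per gene and barcode, made with Cell Ranger 6.0 on mm10, and these counts were used without change. The labels and the study's methods differ on the kit version, which was not settled here. Barcodes were kept from 1000 genes up and with mitochondrial UMIs of no more than 10%. Cells with at least 3 markers of another cell type, or with 1% erythroid UMIs, were set aside. Marker scores (minimum 0.25, margin 0.25) gave the progenitor, interstitial and supporting classes, and no Hox gene was among the markers. No doublet caller was run. An alternative removed the barcodes of highest UMI count, 0.8% per 1000 barcodes.

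UMI counts were summed per library and class, filtered with filterByExpr, scaled by TMM and tested with the quasi-likelihood test of edgeR 4.0.16 in R 4.3.3, on all genes, with Benjamini-Hochberg adjustment (FDR) and a threshold of 0.05. Genotypes and sexes were compared in 1 fit of the 6 groups for each kind of sum, and classes in the 4 WT libraries with the library as a block. Tests were checked on simulated counts. The labels name 2 samples per group as replicates. Alternatives were DESeq2 1.42.0, other scaling and filters, other sets of cells and libraries, and the replicate number as a block. CPM of the Hox and other listed genes in somatic and class sums are on TMM-scaled library sizes. Marker sums, levels in the cells set aside and the means over 12 libraries given with a rank are on unscaled totals. Cells were handled in Python 3.11.15 with pandas 2.3.3 and numpy 2.4.6. Intervals and shares cover counting error only. The members, the gene lists and the comparisons were chosen with earlier results of these data known. All members were named where called, and other genes only from the lists of cofactors, regulators and flanking genes.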

Additional observations from a re-analysis of the deposited data

Results flagged for a closer look

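Hox genes with a called difference between marker classes in the effect of a genotype are listed here, from a fit of all 36 class sums that was added after the data had been seen. For supporting minus interstitial cells in -KTS KO, and for both +KTS KO comparisons below, the share of Hox genes called in either direction was close to that of all genes. Values are differences of log2 fold changes, both sexes averaged, at an edgeR FDR of at most 0.05. For -KTS KO, the effect in interstitial minus that in progenitor cells was 1.21 for Hoxc8 and 0.81 for Hoxc9, 2 of 28 against 3.45% of all genes. In supporting minus interstitial cells it was 1.11 for Hoxb9, 1.04 for Hoxd8, 1 for Hoxb2, 0.88 for Hoxd3, 0.84 for Hoxc9, 0.71 for Hoxd9, 0.65 for Hoxd4, 0.6 for Hoxc6 and -0.87 for Hoxa7. These are 9 of 28 members tested, against 37.4% of all genes called (17.7% higher, 19.7% lower). In supporting minus progenitor cells it was 1.75 for Hoxc10, 1.65 for Hoxc9, 1.37 for Hoxb9, 1.21 for Hoxd8, 1.2 for Hoxb6, 1 for Hoxc6, 1 for Hoxd3, 0.95 for Hoxb3, 0.85 for Hoxc8, 0.83 for Hoxd9 and 0.8 for Hoxd4, 11 of 28 against 30.9% of all genes (14.1% higher).

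For +KTS KO, the effect in supporting minus interstitial cells was 0.72 for Hoxc4, 0.68 for Hoxc6, 0.56 for Hoxd4, -0.44 for Hoxd9 and -0.79 for Hoxa9, 5 of 28 against 19.4% of all genes. In supporting minus progenitor cells it was 0.82 for Hoxc6, 0.66 for Hoxc8, 0.61 for Hoxd4, -0.39 for Hoxd9 and -1.06 for Hoxb9, 5 of 28 against 17.8% of all genes. Under stricter class scores the calls of Hoxb2 and Hoxb6 for -KTS KO and of Hoxa9 and Hoxb9 for +KTS KO were lost, and that of Hoxa9 was also lost with neighbouring mesenchyme cells set aside. XY +KTS KO replicate 2 is the library with muscle and duct cells and had Hoxa9 at 71.0 CPM in interstitial cells. Without it, the +KTS KO calls of Hoxa9 (-0.27), Hoxc4 (0.52) and Hoxc8 (0.57) were lost. The -KTS KO differences use the +KTS KO libraries only through the shared spread and scaling, so leaving this library out could hardly test them. No WT or -KTS KO library was left out of these tests.

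Of the genes of paralog number 13, Hoxa13, Hoxb13 and Hoxc13 had more UMIs in germ cells, which the comparisons leave out, than in gonadal somatic cells. Hoxb13 had 101 UMIs in germ cells of 12 libraries and 1 in gonadal somatic cells, Hoxa13 had 52 and 2, and Hoxc13 had 35 and 1, while Hoxd13 had 3 in germ and 10 in somatic cells. The germ cell sums held 0.357, 0.184 and 0.124 CPM of the first 3, which are low levels.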

How the results depend on the processing

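Counts are Hox genes called. The share of all genes called under each setting is not given in this section. These counts alone therefore do not show whether Hox genes moved apart from all genes. With all kept cells summed they became 1 (XX -KTS KO), 1 (XX +KTS KO), 2 (XY +KTS KO), 1 (XY against XX WT), and 1 in XX and 0 in XY for -KTS KO against +KTS KO. DESeq2 gave 6 (XX +KTS KO), 5 (between sexes), 8 and 9 (-KTS against +KTS KO in XX and XY), 1 and 2 (differences between sexes for -KTS and +KTS KO), 4 and 3 (progenitor, XX and XY +KTS KO), 3 and 6 (interstitial, the same) and 4 (supporting, XX +KTS KO). With no filter on low counts they were 5 and 10 (XX and XY +KTS KO), 5 (between sexes), 7 and 9 (-KTS against +KTS KO), 1 and 3 (differences between sexes), 12, 10, 11 and 6 (progenitor, XX and XY -KTS KO, then XX and XY +KTS KO), 13, 20, 7 and 19 (interstitial, same order), and 9 and 9 (supporting, XX and XY +KTS KO). Fitting only the groups compared gave 0 for XY +KTS KO and 1 for the -KTS KO difference between sexes. Interstitial against progenitor cells gave 15 over all 12 libraries and 3 with no library block. The cause was not tested.

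Replicate numbers did not pair the samples, with correlations of -0.278 to 0.322 over 15 pairs of groups. With the replicate block the counts were 1 (XX +KTS KO) and 3 (XY +KTS KO), and 91 of 100 called genes kept their call.

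With 1 library left out, so that the lone library of a group is assumed to vary like the others, counts ran from 4 to 9 (XX -KTS KO), 10 to 13 (XY -KTS KO), 0 to 1 (XX +KTS KO), 0 to 11 (XY +KTS KO), 0 to 3 (between sexes), 1 to 4 and 2 to 8 (-KTS against +KTS KO in XX and XY), and 0 to 0 and 0 to 3 (differences between sexes). In progenitor cells they were 3 to 5, 3 to 5, 0 to 1 and 0 to 2 (XX and XY -KTS KO, then XX and XY +KTS KO), in interstitial cells 0 to 4, 3 to 12, 0 to 0 and 0 to 8, and in supporting cells 0 to 0, 6 to 11, 0 to 2 and 5 to 7. Between classes they were 1 to 9 (interstitial against progenitor), 23 to 24 and 24 to 26 (supporting against progenitor and interstitial).

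No called gene changed direction under these settings. Apart from leaving out libraries, 1013 values of called genes kept their call and 78 lost it, 26 of these with all kept cells summed and 17 with stricter class scores. Depth was too low to test 9 of the 39 members in the somatic sums (Hoxa11, Hoxa13, Hoxb1, Hoxb13, Hoxc11, Hoxc12, Hoxc13, Hoxd12 and Hoxd13).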
